A study of Mus musculus with 12 samples.

Results

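Endothelial cells line blood vessels, and 10 genes read out that lining and its main growth signal in the skin libraries described here. They are Vegfa, the gene of vascular endothelial growth factor A, its receptor genes Flt1 (VEGFR-1) and Kdr (VEGFR-2), and 7 genes whose proteins sit on the endothelial surface or at endothelial junctions: Pecam1, Cdh5, Esam, Emcn, Eng, Tek and Tie1. The genes are a list of names, and all 10 were found among the 47643 gene IDs of the deposited tables. The 12 RNA-seq libraries fell into 4 groups of 3: skin and epidermis of conditional Adam17 knockout mice (KO), and skin and epidermis of wild type mice (WT). All mice were C57BL/6 and 10 weeks old. The knockout carried floxed Adam17 alleles and Sox9-Cre, so deletion occurs only in cells in which that Cre has been active, in skin above all the hair follicle lineage. Whether the WT mice carried Cre or floxed alleles, and whether each library came from its own mouse, is not given in the sources used here, and p-values therefore reflect variation among these libraries, some of which may be technical only.

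In skin, keratinocytes secrete Vegfa, and vessels of the dermis respond to it, while the epidermis itself holds no vessels. Kdr transmits most of the growth and permeability signal in endothelial cells. Flt1 binds Vegfa more tightly but is a weak kinase, it is also made as a secreted form that captures the ligand, and it is found on monocytes and macrophages as well as on endothelium. Tek (TIE2) is the receptor of the angiopoietins, which steady mature vessels, and Tie1 is its partner.

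The receptor genes and the ligand gene are shown by the 250 bases upstream of their RefSeq starts, because Flt1 and Kdr moved in opposite directions in KO skin. The sequences are from RefSeq, build GRCm38.p6, read 5′ to 3′ on the gene's own strand. Capitals mark the ETS-type motif AGGAAG, a core bound by endothelial ETS factors, and the hypoxia response core ACGTG or GCGTG, each searched on both strands, so that a capital run may be the reverse complement. No match of one motif overlapped a match of the other in these windows. Flt1 (minus strand) spans chr5:147726012-147726261, Kdr (minus strand) spans chr5:75978456-75978705, and the window of the upstream start of Vegfa (minus strand) spans chr17:46032378-46032627.
Flt1: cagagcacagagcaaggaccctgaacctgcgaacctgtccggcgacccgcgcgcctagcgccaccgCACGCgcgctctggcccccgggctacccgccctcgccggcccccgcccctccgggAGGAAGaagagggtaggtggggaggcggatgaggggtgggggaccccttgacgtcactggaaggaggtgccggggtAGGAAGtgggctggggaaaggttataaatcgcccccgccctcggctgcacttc
Kdr: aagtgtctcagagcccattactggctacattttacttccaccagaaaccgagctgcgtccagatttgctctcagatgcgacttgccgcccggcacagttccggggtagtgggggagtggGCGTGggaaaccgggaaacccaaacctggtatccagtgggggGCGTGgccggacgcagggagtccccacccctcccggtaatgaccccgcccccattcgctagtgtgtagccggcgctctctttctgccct
Vegfa: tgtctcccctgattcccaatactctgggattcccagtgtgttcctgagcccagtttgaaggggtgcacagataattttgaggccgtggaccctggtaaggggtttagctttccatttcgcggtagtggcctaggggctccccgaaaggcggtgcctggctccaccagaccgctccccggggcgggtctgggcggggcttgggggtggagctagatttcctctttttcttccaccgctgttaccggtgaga
The Flt1 window held 2 ETS-type matches and 1 hypoxia core, the Kdr window 0 and 2, and the Vegfa window 0 and 0. The table lists a second Vegfa start, whose window at chr17:46025164-46025413 is not printed and held 0 ETS-type matches and 2 hypoxia cores. Over all 32851 promoter windows of that length, 29.5% held AGGAAG and 38.6% held a hypoxia core. These matches are a description of letters only. Of the 10 genes, 7 were in the promoter table. Among the windows not printed, Eng and Emcn held 2 ETS-type matches each, Tie1 held 1 and Tek 0. Emcn held 1 hypoxia core, and Eng, Tie1 and Tek held 0. Like Kdr, all of Eng, Emcn, Tie1 and Tek were lower in KO skin.

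Libraries held between 12208522 and 16743144 expected counts, so that 3 counts were worth between 0.179 and 0.246 CPM (counts scaled to a common library total). The targeted gene was checked first: Adam17 was at 46.7, 57.4 and 59.4 CPM in KO skin, against 70.3, 110 and 108 CPM in WT skin, and at 39.6, 54.3 and 46.3 CPM in KO epidermis, against 73.2, 82.1 and 67.5 CPM in WT epidermis, with no overlap between genotypes. Y-linked reads (Ddx3y, Eif2s3y, Kdm5d and Uty) numbered between 0 and 1728 in KO skin and between 213 and 1781 in KO epidermis, and were 0 in all 6 WT libraries. In skin, all 10 genes kept their direction and call with those reads as a covariate. Leaving out the KO skin libraries that hold them gave the same directions, but it leaves 1 KO library, so that the spread is that of the WT libraries alone. In the epidermis every KO library holds such reads and every WT library holds 0, so that genotype and the source of these reads cannot be told apart there. Levels below are CPM scaled by TMM over the 12 libraries, which serve to compare 1 gene between libraries.

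In KO skin, Vegfa and Flt1 rose while Kdr and the 7 other endothelial genes fell. All 10 genes passed the test in skin (edgeR quasi-likelihood test, Benjamini-Hochberg adjusted p under 0.05): 2 higher and 8 lower, and the KO and WT libraries overlapped for 0 of the 10. The share of all 14906 genes tested that passed was 45.5%, with 22.2% higher and 23.3% lower, and 58% of genes did not overlap (25.8% higher, 32.2% lower), so many genes of this tissue moved with genotype. The median log2 fold change was -1.57 over the 10 genes and 0.00 over all genes tested. In bulk RNA, fewer cells of a type and less RNA per cell cannot be told apart.

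Vegfa had 31.6, 54.0 and 38.1 CPM in KO skin, against 18.3, 12.01 and 20.2 CPM in WT skin. Every KO library lay above every WT library. The level averaged 41.2 ± 11.5 CPM in KO skin and 16.8 ± 4.27 CPM in WT skin (SD, n = 3 each), a log2 fold change of 1.39 (SE 0.27, edgeR adjusted p = 0.00606). In the epidermis Vegfa had 33.2, 44.6 and 51.5 CPM in KO libraries, against 10.7, 9.51 and 7.95 CPM in WT libraries, again with no overlap. That difference was 4.64-fold (log2 fold change 2.22, SE 0.20, edgeR adjusted p = 7.09e-05). Vegfa was the only one of the 10 genes with at least 92 reads in every library.

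Flt1 had 26.4, 33.8 and 40.2 CPM in KO skin, against 9.03, 8.99 and 13.3 CPM in WT skin. The lowest KO library stood at 26.4 CPM and the highest WT library at 13.3 CPM, and the log2 fold change was 1.77 (SE 0.23, edgeR adjusted p = 0.00124). In the epidermis the contrast was steeper: 120, 220 and 278 reads in KO libraries (9.49, 17.5 and 19.6 CPM), against 8, 4 and 2 reads in WT libraries (0.707, 0.276 and 0.173 CPM). The fitted ratio was 40.8-fold (log2 fold change 5.35, SE 0.46, edgeR adjusted p = 5.93e-05), and the ratio of summed reads was 41.9 with a 95% counting interval of 24.8 to 77.0. Because WT epidermis held 14 Flt1 reads in all, 1 library weighs on the size: without Epidermis WT replicate 1 the log2 fold change was 6.03. Counting intervals cover counting error only.

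Kdr, the receptor that carries most of the endothelial Vegfa signal, went the other way. It had 3.83, 1.71 and 2.35 CPM in KO skin, against 8.89, 9.30 and 13.5 CPM in WT skin. All KO libraries were below all WT libraries, and the log2 fold change was -1.91 (SE 0.33, edgeR adjusted p = 0.00389). In the epidermis Kdr had 2, 2 and 1 reads in KO libraries, against 1, 1 and 1 reads in WT libraries, which was too few for the test across genes. The ratio of summed reads was 1.58 with a 95% counting interval of 0.308 to 10.2, so that a change in the epidermis was not detectable at this depth.

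**Figure D1:**
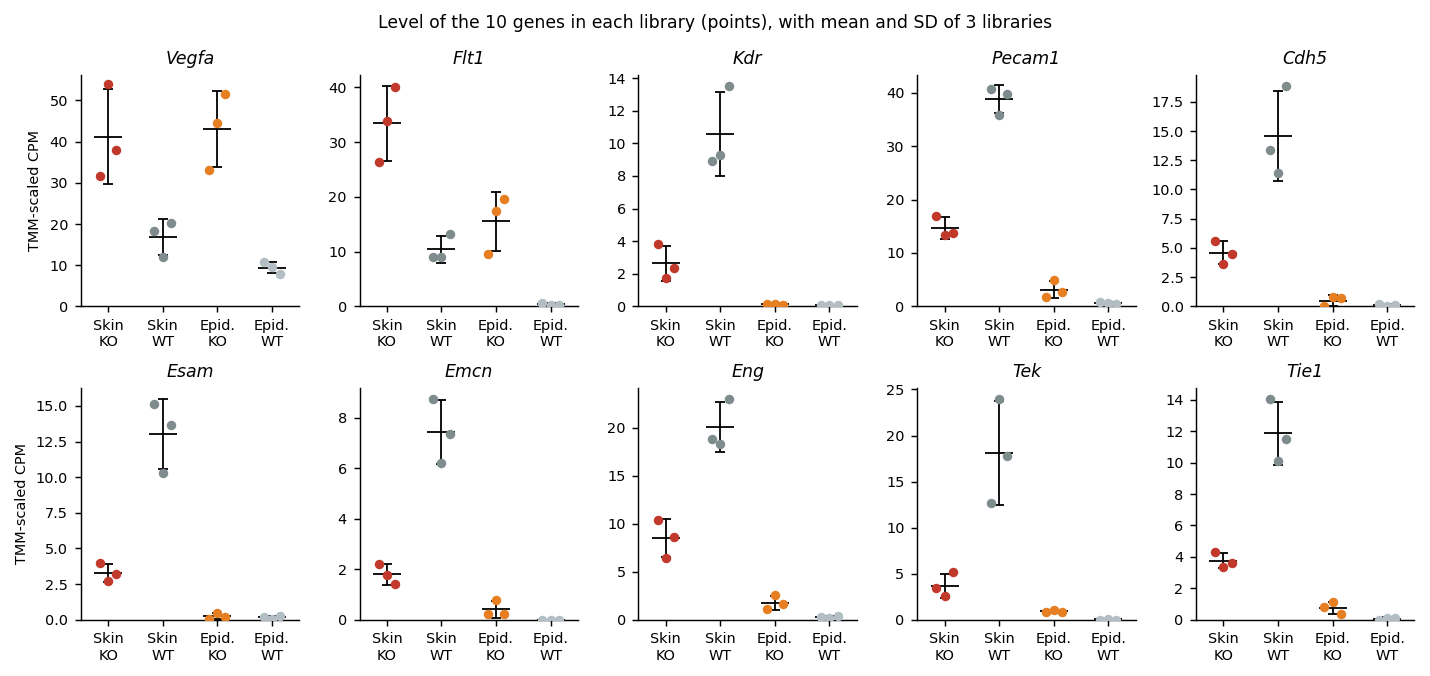
TMM-scaled CPM (vertical axis, from 0, own scale per gene) of the 10 genes in each library of KO skin, WT skin, KO epidermis and WT epidermis; points are libraries, bars the mean and SD of 3. Vegfa and Flt1 lie higher in KO than in WT skin, the other 8 genes lie lower, and in WT epidermis every gene but Vegfa is near 0.

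Tek and Tie1, the TIE receptor genes, fell in KO skin. Tek had 3.40, 2.57 and 5.14 CPM in KO skin, against 12.7, 24.0 and 17.7 CPM in WT skin, and its log2 fold change of -2.19 was the lowest of the 10 genes (SE 0.33, edgeR adjusted p = 0.00228). Tie1 had 4.33, 3.36 and 3.62 CPM in KO skin, against 14.1, 10.1 and 11.5 CPM in WT skin (log2 fold change -1.56, SE 0.21, edgeR adjusted p = 0.00147). For both genes the groups stood well apart. In the epidermis the order was the reverse at very low levels: Tek had 10, 13 and 12 reads in KO libraries, against 0, 1 and 0 reads in WT libraries, a ratio of 33.2 with a 95% counting interval of 5.58 to 1348. Tie1 had 10, 14 and 5 reads in KO epidermis, against 0, 2 and 1 reads in WT epidermis, a ratio of 9.17 with an interval of 2.84 to 47.0. Neither was tested in the epidermis fit, since both were removed by its filter on low counts.

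The genes of the endothelial junction, where neighbouring cells of the vessel wall meet, fell together in KO skin. Pecam1, an adhesion protein that platelets and leukocytes also carry, had 16.95, 13.4 and 13.7 CPM in KO skin, against 40.7, 35.8 and 39.8 CPM in WT skin (log2 fold change -1.31, SE 0.15, edgeR adjusted p = 0.00076). Cdh5, the VE-cadherin of adherens junctions, had 5.60, 3.64 and 4.50 CPM in KO skin, against 13.4, 11.4 and 18.9 CPM in WT skin (log2 fold change -1.57, SE 0.25, edgeR adjusted p = 0.00296). Esam, a tight junction adhesion protein, had 3.97, 2.71 and 3.17 CPM in KO skin, against 15.1, 10.3 and 13.7 CPM in WT skin (log2 fold change -1.89, SE 0.23, edgeR adjusted p = 0.00111). KO and WT skin libraries did not overlap for any of the 3 genes.

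In the epidermis only Pecam1 of these junction genes had enough reads for the test. Pecam1 rose to 1.82, 5.01 and 2.61 CPM in KO libraries, against 0.795, 0.621 and 0.518 CPM in WT libraries (log2 fold change 2.29, SE 0.46, edgeR adjusted p = 0.00364). Cdh5 had 0, 10 and 10 reads in KO libraries, against 2, 1 and 1 reads in WT libraries, so that the groups overlapped. The ratio of summed Cdh5 reads was 4.74 with a 95% counting interval of 1.59 to 19.1. For Pecam1 that ratio was 4.86 with an interval of 3.12 to 7.87, so Cdh5 was not shown to differ from Pecam1 there. Esam had 1, 6 and 3 reads in KO libraries, against 2, 1 and 3 reads in WT libraries, and the ratio of summed reads was 1.58 with a 95% counting interval of 0.520 to 5.29. Cdh5 was at 0 in 1 KO library, although that library held 23 Pecam1 reads and 120 Flt1 reads.

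Emcn and Eng are surface proteins of the vessel wall. Emcn, a sialomucin of capillary and venous endothelium, had 2.20, 1.79 and 1.40 CPM in KO skin, against 8.75, 6.22 and 7.35 CPM in WT skin (log2 fold change -1.96, SE 0.26, edgeR adjusted p = 0.00142). Eng, a co-receptor of the TGF-beta family, had 10.4, 6.43 and 8.63 CPM in KO skin, against 18.8, 18.3 and 23.0 CPM in WT skin, and its log2 fold change of -1.15 was the smallest in size among the 8 genes that fell (SE 0.20, edgeR adjusted p = 0.00434). Both were lower in every KO skin library than in any WT skin library. In the epidermis Emcn had 3, 10 and 3 reads in KO libraries, against 0, 0 and 0 reads in WT libraries, which is at least 5.06-fold higher when the 3 WT libraries together are set at 3 counts. Eng rose to 1.11, 2.55 and 1.63 CPM in KO epidermis, against 0.265, 0.207 and 0.346 CPM in WT epidermis (log2 fold change 2.68, SE 0.48, edgeR adjusted p = 0.00206).

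In the epidermis 4 of the 10 genes had enough reads for the test, Vegfa, Flt1, Pecam1 and Eng, and all 4 were higher in KO libraries. Over all 13632 genes tested there, 51.5% passed, and 26.2% of those tested passed as higher in KO libraries. Counting untested genes too, the KO libraries lay above the WT libraries without overlap for 7 of 10 genes, against 30.4% of all genes tested (62% in either direction). Genes that passed the filter through the KO libraries alone had to differ, so these counts describe the genes and are no test of them. The summed level of the 8 genes other than Vegfa and Flt1 was between 4.98 and 11.9 CPM in KO epidermis, against 1.24 to 1.502 CPM in WT epidermis; in whole skin it was between 35.6 and 50.6 CPM in KO libraries, against 125 to 145 CPM in WT libraries.

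**Figure D2:**
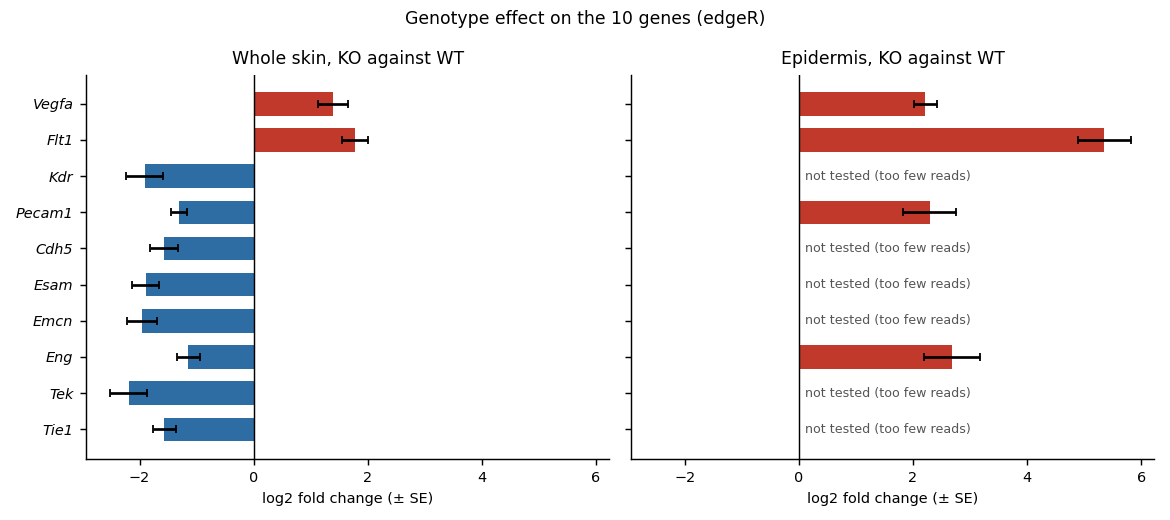
Log2 fold change of KO against WT (horizontal axis, bars with SE) from edgeR for the 10 genes in whole skin (left) and epidermis (right), on a shared scale. In skin Vegfa (1.39) and Flt1 (1.77) point up and the other 8 point down; in the epidermis the 4 genes with enough reads point up, Flt1 furthest (5.35).

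Markers of other cells moved with these values. In KO epidermis 6 of 6 tested fibroblast markers rose, with summed levels of 61.9 to 121 CPM in KO libraries, against 6.05 to 10.5 CPM in WT libraries, and 1 of the 8 listed markers was at 0 in each WT library. Of 7 tested monocyte and macrophage markers 6 rose, with sums of 54.6 to 141 CPM in KO libraries, against 20.6 to 25.5 CPM in WT libraries. Ccr2, a chemokine receptor of inflammatory monocytes, had 498 reads in KO epidermis, against 2 reads in WT epidermis. The neutrophil markers summed to between 46.8 and 79.7 CPM in KO epidermis, against 0 to 0.138 CPM in WT epidermis. Most of that sum was Cxcr2, with 2157 reads in KO epidermis. There Csf3r had 249 reads, Retnlg 191, Ngp 12, Ly6g 10 and Mpo 4. Only Cxcr2 and Csf3r had enough reads for the test, and both rose. Of the 6 adipocyte markers only Pparg, which other cells make too, had enough reads for the test in the epidermis, and it did not pass, with 260 reads in KO libraries, against 171 reads in WT libraries. Adipoq, an adipocyte gene, had 7 reads in KO epidermis, against 1 read in WT epidermis. The part of these cells in the epidermal rise of Flt1, Pecam1 and Eng was not tested.

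In whole skin the other compartments differed as well. Fibroblast markers summed to between 738 and 1694 CPM in KO libraries, against 2101 to 2846 CPM in WT libraries, with 5 of 8 lower. Adipocyte markers summed to between 141 and 323 CPM in KO skin, against 1424 to 2008 CPM in WT skin, and skeletal muscle markers to between 464 and 2457 CPM in KO skin, against 7142 to 58628 CPM in WT skin. Of 8 keratinocyte markers 3 rose in KO skin, Krt1, Krt14 and Sfn, and 5 did not pass. Their sum, between 50359 and 60178 CPM in KO skin, against 27559 to 33105 CPM in WT skin, is mostly that of abundant keratins such as Krt1 and Krt10. The part of these shifts in the lower endothelial levels was not tested.

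Ratios within a library do not depend on its scaling, and they compare the receptors with Cdh5, an endothelial gene. In skin the library held 4.69, 9.19 and 8.86 Flt1 reads per Cdh5 read in KO libraries, against 0.676, 0.786 and 0.705 in WT libraries (counts plus 0.5). The log2 ratio averaged 2.86 ± 0.55 in KO skin and -0.47 ± 0.11 in WT skin (SD, n = 3 each), a difference of 3.33 (exact two-sided permutation test, p = 0.1, the smallest that 3 against 3 libraries allow). Flt1 thus stood apart from Cdh5 in these libraries. The log2 ratio of Kdr to Cdh5 differed by -0.39 (exact p = 0.2), and that of Pecam1 to Cdh5 by 0.24 (exact p = 0.6). The log2 ratio of Vegfa to Cdh5 differed by 2.94 (exact p = 0.1). Over 16 such tests the smallest adjusted p was 0.2, so that no ratio can pass at this number of libraries.

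With the summed reads of the 7 genes Cdh5, Pecam1, Tie1, Tek, Emcn, Esam and Eng below the line, the skin differences were 3.31 for Flt1 and -0.41 for Kdr. In the epidermis the same ratio differed by 2.89 for Flt1, with no overlap, and by -2.03 for Kdr, which rests on 1 or 2 Kdr reads in a library (exact p = 0.1 for each). Epidermal ratios to Cdh5 alone rest on between 0 and 10 Cdh5 reads: Flt1 to Cdh5 was 4.32 higher on the log2 scale in KO epidermis (exact p = 0.1; 3.20 without Epidermis KO replicate 1 and 4.96 without Epidermis KO replicate 2), and the ratios of Kdr, Pecam1 and Vegfa to Cdh5 overlapped between genotypes.

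**Figure D3:**
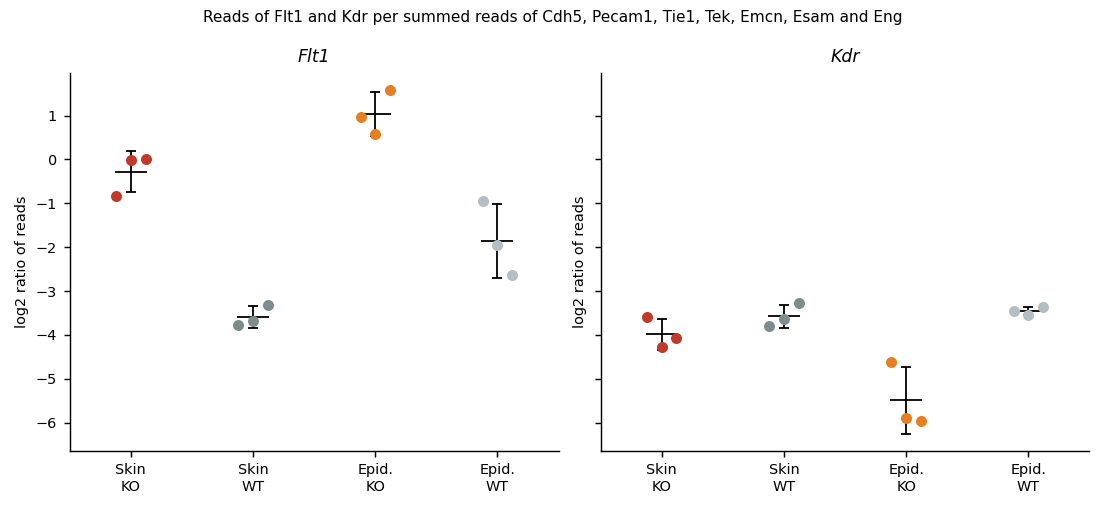
Log2 ratio of Flt1 reads (left) and Kdr reads (right) to the summed reads of 7 endothelial genes in each library, with counts plus 0.5; points are libraries, bars the mean and SD of 3. Flt1 stands higher in KO than in WT libraries of both tissues, by 3.31 in skin and 2.89 in epidermis; Kdr overlaps in skin.

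The deposited tables also give, for each gene and library, a length in bases averaged over its isoforms by their estimated abundance. For Flt1 this length was 6502, 6315 and 5859 bases in KO skin, against 6662, 6686 and 6673 bases in WT skin. It averaged 6226 ± 331 bases in KO skin and 6674 ± 12.3 bases in WT skin (SD, n = 3 each; exact two-sided permutation test, p = 0.1, adjusted p = 0.667 over the 20 comparisons of 10 genes in both tissues). GENCODE M21 lists 2 coding Flt1 transcripts, 1 of 6895 bases with 1333 codons and 1 of 6292 bases with 688 codons, the shorter reading frame being that of the secreted form. Non-coding Flt1 transcripts of 274 to 2049 bases are listed too, and the files used here do not give a level for each. Tek also did not overlap in length in skin, at 4586 bases in KO libraries and 4545 bases in WT libraries on average.

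Wild type skin and epidermis show how the level of each gene differs between whole skin and epidermis. The skin libraries also held skeletal muscle and adipocyte markers, so the contrast does not place a gene in the dermis. In WT epidermis all 10 genes were lower than in WT skin, against 42.9% of 14596 genes tested that passed in either direction and 25.3% that were lower. None of the 10 genes overlapped between those groups, against 56.5% of all genes that did not (27.5% higher, 29% lower). Kdr had 3 reads in the 3 WT epidermis libraries together, against 528 reads in WT skin. Per library total, without TMM scaling, Kdr was 158-fold lower (95% counting interval 53.8 to 769). The edgeR fit gave 121-fold (log2 fold change -6.92, SE 0.38, edgeR adjusted p = 1.86e-05). Emcn had 0 reads in WT epidermis, against 365 in WT skin, and was at least 109-fold lower with WT epidermis set at 3 counts. Vegfa stood apart in size: 9.38 ± 1.38 CPM in WT epidermis and 16.8 ± 4.27 CPM in WT skin, a log2 fold change of -0.87 (edgeR adjusted p = 0.0209). That call was lost without Skin WT replicate 3 (adjusted p = 0.0822), Epidermis WT replicate 2 (0.0635) or Epidermis WT replicate 3 (0.0756), with log2 fold changes between -1.08 and -0.73 over the libraries left out in turn. For Flt1 the log2 fold change was -4.78 (SE 0.44, edgeR adjusted p = 0.000172), and -5.48 without Epidermis WT replicate 1.

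In the knockout, 9 of the 10 genes were lower in epidermis than in skin, against 29.9% of 14117 genes tested that passed in either direction and 15.9% that were lower; 9 also did not overlap, against 47.8% of all genes. Vegfa was the exception: it averaged 43.1 ± 9.24 CPM in KO epidermis and 41.2 ± 11.5 CPM in KO skin, with overlapping libraries (log2 fold change 0.06, SE 0.23, edgeR adjusted p = 0.863). Flt1 averaged 15.5 ± 5.35 CPM in KO epidermis and 33.4 ± 6.89 CPM in KO skin (log2 fold change -1.11, SE 0.28, edgeR adjusted p = 0.0234). This call was lost without Skin KO replicate 2 (adjusted p = 0.0580), Skin KO replicate 3 (0.0840) or Epidermis KO replicate 2 (0.0516). Kdr had the lowest log2 fold change of the 10 genes here, with 5 reads in KO epidermis, against 115 reads in KO skin (log2 fold change -4.28, SE 0.52, edgeR adjusted p = 0.00284). Emcn, at a log2 fold change of -2.11 (edgeR adjusted p = 0.0215), lost its call when any 1 KO library other than Epidermis KO replicate 2 was left out, and was at -2.95 without that library; Esam was at -3.65, and at -4.39 without Epidermis KO replicate 2.

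The genotype effect differed between the tissues for 8 of the 10 genes (edgeR fit of all 12 libraries, contrast of the epidermal minus the skin genotype effect), against 16.5% of 15394 genes tested. Of these calls, Esam was lost with the replicate block (adjusted p = 0.0564), Cdh5 and Esam were lost with limma-voom, and over 18 alternatives Esam kept its call in 9 and Cdh5 in 11. All 8 differences were positive, against 10.1% of all genes tested that passed as positive and 6.36% as negative. WT epidermis held only 0 (Emcn) to 24 (Pecam1) reads of each of these 8 genes, so a fall there could hardly show. All of them but Flt1 fell in skin. The positive sign was thus largely set beforehand, and its count is a description. For Eng the difference was 3.91 on the log2 scale (SE 0.48, edgeR adjusted p = 0.000957), for Pecam1 3.68 (SE 0.45, edgeR adjusted p = 0.000997) and for Flt1 3.66 (SE 0.55, edgeR adjusted p = 0.00237). Eng and Pecam1 fell in skin and rose in the epidermis, while Flt1 rose in both and by more in the epidermis. For Vegfa the difference was 0.91 (SE 0.35, edgeR adjusted p = 0.0959) and for Kdr 2.62 (SE 0.84, edgeR adjusted p = 0.0597), and neither passed.

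Levels of different genes can be compared per transcript length, as TPM, the deposited level scaled by length and library. In KO skin Vegfa led at 21.1 ± 4.55 TPM, followed by Flt1 at 7.48 ± 2.11 TPM and Pecam1 at 6.51 ± 0.87 TPM, whose ranges overlapped. Kdr was last at 0.61 ± 0.25 TPM, with a range that overlapped that of Tek above it. In WT skin Pecam1 led at 17.6 ± 2.168 TPM, above Esam at 10.8 ± 1.89 TPM and Vegfa at 9.48 ± 1.89 TPM, which overlapped. Flt1 was last there at 2.28 ± 0.82 TPM, within the range of Kdr at 2.62 ± 0.97 TPM. Flt1 thus stood at rank 2 in KO skin and at rank 10 in WT skin.

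In KO epidermis Vegfa was at 17.7 ± 6.99 TPM and Flt1 at 2.48 ± 1.16 TPM, without overlap, and Pecam1 followed at 1.11 ± 0.60 TPM, within the range of Flt1. The other 7 genes lay between 0.02 TPM (Kdr) and 0.563 TPM (Eng) on average. In WT epidermis Vegfa was at 3.66 ± 0.57 TPM and Pecam1 at 0.233 ± 0.025 TPM. The remaining 8 genes averaged at most 0.09 TPM, and Emcn was listed at 0.

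Across the 12 libraries the 8 endothelial genes other than Vegfa and Flt1 ran in parallel, with Pearson r between 0.916 and 0.994 for log2 CPM. These libraries share 4 groups that differ strongly, so r describes the group pattern. Flt1 was less like them, with r between 0.511 (Kdr) and 0.751 (Eng), and its r with Vegfa was 0.869. Among 14044 genes, those most like Flt1 were Ccr2 (r = 0.981), Lactb2 (0.976) and Elk3 (0.975), and those most like Vegfa were Nploc4 (0.978), Eprs (0.977) and Cluh (0.972). Kdr was most like Adipoq (0.996), Cidec (0.995) and Mup11 (0.995), the first pair being adipocyte genes, and Pecam1 was most like Aqp1 (0.997), Eng (0.994) and Emcn (0.991). Ccr2 itself rose in KO skin, with 768 reads in KO libraries, against 262 reads in WT libraries (log2 fold change 1.78, SE 0.32, edgeR adjusted p = 0.00475). Of 8 tested monocyte and macrophage markers in skin 1 rose, Ccr2, and 2 fell, Adgre1 and Cd163.

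The other VEGF ligand and receptor genes were divided. In KO skin 2 of 7 rose and 4 fell. Counts of this and the following lists stand beside the shares of all genes tested. These were 22.2% higher and 23.3% lower in skin, and 26.2% higher and 25.3% lower in the epidermis. List counts near such shares are a description of the genes. Nrp2, a co-receptor of lymphatic and other vessels, rose to 35.7 ± 3.31 CPM in KO skin, against 18.6 ± 3.52 CPM in WT skin, and Pgf, a ligand that binds Flt1 but not Kdr, rose to 1.36 ± 0.65 CPM in KO skin, against 0.479 ± 0.050 CPM in WT skin (log2 fold change 1.59, edgeR adjusted p = 0.0192). Nrp1, the co-receptor that enhances Kdr signalling, fell by 1.42 on the log2 scale, Vegfb by 1.34, the lymphatic ligand Vegfc by 1.31 and Vegfd by 0.75. Flt4, the receptor of lymphatic endothelium, had a log2 fold change of -0.74 and did not pass (edgeR adjusted p = 0.21). In the epidermis 5 were tested, 3 rose and 2 fell. Pgf had 75 reads in KO epidermis, against 1 read in WT epidermis, and it passed the filter through the KO libraries alone. Genes of the lists that are near 0 in WT epidermis had to differ once they passed the filter, so that epidermal counts of list genes that rose are a description. Nrp2 rose there by 1.97 and Nrp1 had 95 reads in KO epidermis, against 23 reads in WT epidermis (edgeR adjusted p = 0.00602), while Vegfd and Vegfb had log2 fold changes of -1.34 and -0.65. The ligands of Flt1 thus moved unequally: Vegfa and Pgf were higher and Vegfb lower in KO libraries of both tissues.

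All 3 tested angiopoietin and TIE partner genes fell in KO skin. Angpt1, the ligand that activates Tek, was at 1.03 ± 0.39 CPM in KO skin and 7.16 ± 1.19 CPM in WT skin (log2 fold change -2.70, edgeR adjusted p = 0.000887). Angpt2, its context-dependent antagonist, had a log2 fold change of -1.38, and Ptprb, the endothelial phosphatase that dampens Tek, one of -2.08. In the epidermis 0 of these 4 genes were tested. Ptprb had 32 reads in KO epidermis, against 4 reads in WT epidermis, and Angpt1 had 8 reads in KO epidermis, against 14 reads in WT epidermis.

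Of the VEGF receptor effectors, the intracellular proteins that relay the signal, 5 of 10 rose and 3 fell in KO skin. Shb and Sh2d2a, adaptor proteins that bind Kdr, rose by 1.14 and 2.42 on the log2 scale, and Akt1, a survival kinase, by 0.51. Prkcb, a protein kinase C, fell by 1.75. In the epidermis 3 of 9 rose (Sh2d2a by 3.63, Shb by 0.52 and Plcg1 by 0.40), and the other 6 did not pass. Many of these proteins are made by other cells too, so their levels do not read out endothelium alone.

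Of the genes induced by VEGF or used by tip cells, the leading cells of a growing vessel, 2 of 9 rose and 3 fell in KO skin. Cxcr4, a chemokine receptor of tip cells and of leukocytes, rose by 1.90, with 482 reads in KO skin, against 157 reads in WT skin. Dll4, the Notch ligand of tip cells, fell to 16 reads in KO skin, against 96 reads in WT skin (log2 fold change -2.29, edgeR adjusted p = 0.00135). Pdgfb, which recruits pericytes, fell by 2.15, and Nid2, a basement membrane protein, by 2.86. Cxcr4 rose in the epidermis as well, with 939 reads in KO libraries, against 29 reads in WT libraries (log2 fold change 4.95). There 2 of 6 rose and 3 fell, Nr4a1, Pdgfb and Rcan1 being the lower ones.

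Of 24 other endothelial markers 21 fell and 1 rose in KO skin, with a median log2 fold change of -1.66. Gpihbp1, the capillary anchor of lipoprotein lipase, fell by 3.67, Cd34 by 2.31 and S1pr1, a receptor that tightens the vessel barrier, by 1.99. Sox7 was the gene that rose, to 73.2 ± 8.04 CPM in KO skin, against 10.5 ± 1.11 CPM in WT skin (log2 fold change 2.89, edgeR adjusted p = 5.92e-05). Sox7 was as high in epidermis, with 73.9 ± 7.33 CPM in KO libraries and 10.1 ± 3.46 CPM in WT libraries, so that in these samples its level did not follow the endothelial genes. Tal1 and Ecscr did not pass in skin. In the epidermis 10 of the 24 were tested, of which 4 rose (Sox7, Fli1, Ecscr and Aqp1) and 2 fell (Cd34 and Rasip1). Fli1, an ETS factor of endothelium and blood cells, had 98 reads in KO epidermis, against 6 reads in WT epidermis (log2 fold change 3.89).

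Pericytes and vascular smooth muscle wrap the vessel, and 7 of 11 tested genes of that list fell in KO skin. Rgs5, a pericyte gene, fell to 5.07 ± 2.16 CPM in KO skin, against 30.1 ± 7.77 CPM in WT skin (log2 fold change -2.48), and Myh11, a smooth muscle myosin, fell by 2.70. Tagln fell by 1.85 and Mcam by 2.03. In the epidermis 1 of 5 rose, Notch3 by 0.96, and 1 fell, Cspg4 by 1.70. Notch3 had 3135 reads and Cspg4 761 reads in WT epidermis, against 114 for Acta2, 133 for Mcam and 43 for Tagln. The 7 untested genes of the list had between 0 (Higd1b) and 4 (Pdgfrb) reads each there. The levels of Notch3 and Cspg4 in WT epidermis thus did not follow the other genes of the list, and their source was not tested. Lymphatic endothelium gave 0 of 6 genes past the threshold in KO skin at an adjusted p of 0.05 in edgeR (0 also at an unadjusted p under 0.05, and 0 in DESeq2 and limma-voom). Ccl21a, a chemokine of lymphatic vessels, was at 23.9 ± 4.84 CPM in KO skin and 28.4 ± 15.8 CPM in WT skin, and Pdpn, a lymphatic surface protein, at 10.9 ± 2.06 CPM in KO skin and 12.5 ± 1.10 CPM in WT skin. In the epidermis 1 of these genes was tested, Pdpn, which rose by 1.23. It had 140 reads in WT epidermis, where Lyve1 and Mmrn1 had 0 reads each and Ccl21a had 5 reads. The level of Pdpn there thus did not follow the other lymphatic genes.

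Genes of endothelial activation, which let leukocytes stick to the vessel wall, did not move as one. In KO skin 1 of 6 rose, Icam1, by 1.07 (edgeR adjusted p = 0.00125). Vcam1 fell by 1.59, Ackr1, a venular chemokine receptor, by 1.15 and Lrg1 by 1.47. The selectin genes Sele and Selp, with log2 fold changes of 0.11 and -0.12, did not pass. In the epidermis Lrg1 rose, with 110 reads in KO libraries, against 5 reads in WT libraries.

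Hypoxia genes were read because low oxygen induces Vegfa. In KO skin 5 of 15 rose and 3 fell, against 22.2% higher and 23.3% lower of all genes tested there. These counts are a description. Hif1a, the oxygen-regulated factor itself, was at 322 ± 43.9 CPM in KO skin and 98.3 ± 24.9 CPM in WT skin (log2 fold change 1.81, edgeR adjusted p = 0.00101). Slc2a1, a glucose transporter, rose by 2.48 and Egln3, an oxygen sensor of the pathway, by 2.49, while Ddit4 fell by 0.70. In the epidermis 8 of 15 rose and 5 fell, against 26.2% higher and 25.3% lower of all genes tested there. Hif1a rose by 1.36, Egln3 by 2.19 and Pgk1, a glycolytic enzyme, by 1.30. Of the target genes, Bnip3 and Ddit4 fell in both tissues. Ankrd37, P4ha1 and Ndrg1 were also lower in KO than in WT epidermis, with log2 fold changes of -1.16, -0.88 and -0.70. Protein levels and HIF activity were not measured.

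Of 7 angiogenesis inhibitors 2 rose and 3 fell in KO skin. Thbs2 and Serpinf1, secreted inhibitors of vessel growth, fell by 2.17 and 2.41, Timp3, which blocks Vegfa binding to Kdr and also inhibits Adam17, by 1.39, and Adamts1 rose by 0.88. In the epidermis 3 rose and 2 fell. Serpinf1 had 136 reads in KO epidermis, against 12 reads in WT epidermis (log2 fold change 3.44), Adamts1 rose by 1.09 and Thbs2 fell by 1.81.

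**Figure D4:**
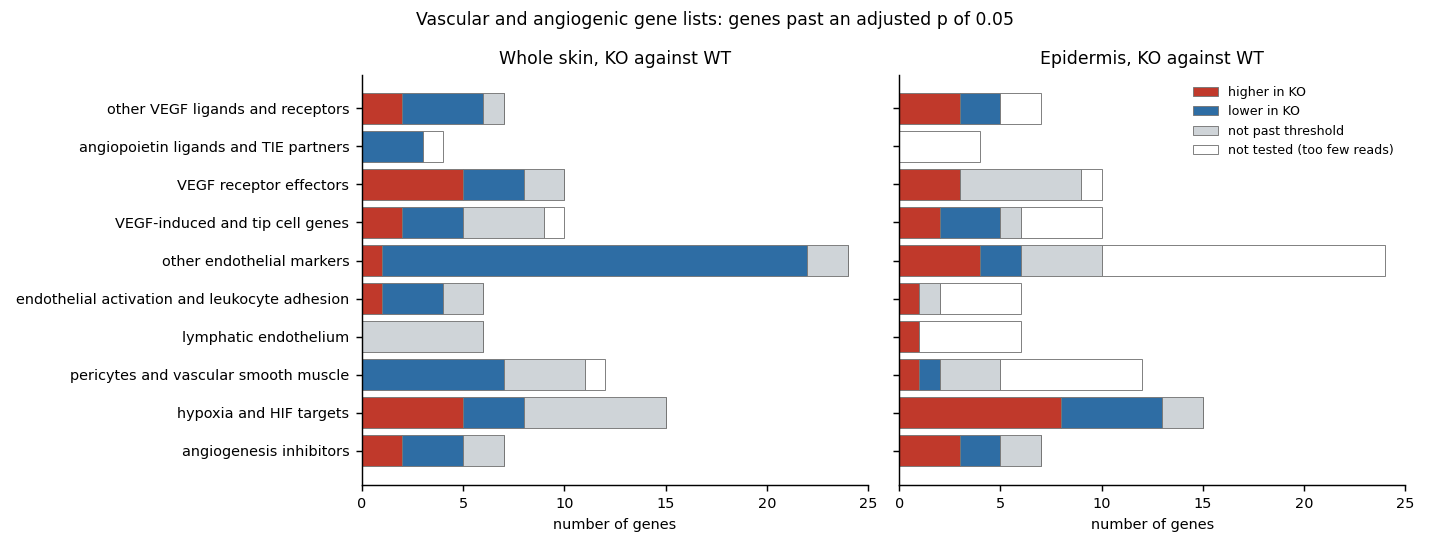
Number of genes (horizontal axis) of 10 vascular and angiogenic lists that were higher in KO, lower in KO, not past an edgeR adjusted p of 0.05, or not tested for lack of reads, in whole skin (left) and epidermis (right). In skin 21 of 24 other endothelial markers and 7 of 11 tested pericyte genes are lower in KO; in the epidermis 14 of the 24 other endothelial markers had too few reads for the test.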

How the data were processed

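RNA from skin and epidermis was sequenced from stranded poly(A) libraries, per the labels' protocols. The authors deposited RSEM expected counts and TPM, and the submitters' processing notes also name STAR 2.5.1, bcl2fastq 2.17 and the mm10 build; the other deposited values used were gene lengths and effective lengths, per the file headers. Which annotation and strand setting the counting used is not given here. RSEM splits multi-mapping reads; 8.42% to 9.98% of values per library were not whole, although all values of the 10 genes were. Counts were rounded.

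Symbols and positions came from GENCODE M21 (GRCm38). Tests used edgeR 4.0.16 in R 4.3.3: TMM scaling, the default filter on low counts, quasi-likelihood fits, and p-values adjusted by Benjamini-Hochberg over all genes tested, at a threshold of 0.05. The standard error was the log2 fold change divided by the square root of the F value. Single ratios used exact permutation tests, and read ratios used exact binomial intervals at 95%. Each genotype comparison was fitted in its own tissue, and each comparison of epidermis with skin in its own genotype. The difference between the genotype effects of the tissues was tested in 1 fit of 12 libraries. Correlations used log2 CPM with a prior count of 2, over genes of at least 1 CPM on average. Alternatives were RLE scaling, DESeq2 1.42.0, limma-voom 3.58.1, no filter, effective length offsets, a replicate block, 1 fit of all libraries, Y-linked reads as a covariate and leaving out libraries. The scripts were tested on simulated data.

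The 10 genes and the lists were chosen with earlier results of these data known. Of each list, up to 4 genes with the smallest adjusted p in skin and up to 3 in the epidermis were named, or the 2 most abundant where none passed, and list genes outside that rule, named to complete a count, were chosen after their values were seen. Same-numbered skin libraries deviated together (r = 0.339, 0.359 and 0.206), so the numbers were taken to pair KO and WT skin, from the data alone, since the labels do not say what a number marks. The values printed come from fits and exact tests without the pairs, and the replicate block was an alternative. Epidermis numbers did not (r = 0.0745, 0.140 and -0.0550).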

Additional observations from a re-analysis of the deposited data

Results flagged for a closer look

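The genotype effect in the epidermis differed from that in skin for 8 of the 10 genes, by an edgeR test of the difference itself in a fit of all 12 libraries. On the log2 scale the epidermal minus the skin effect was 3.66 for Flt1, 3.68 for Pecam1, 3.81 for Cdh5, 2.61 for Esam, 7.62 for Emcn, 3.91 for Eng, 6.95 for Tek and 4.74 for Tie1, with adjusted p between 0.000612 (Tek) and 0.0334 (Esam). The call of Esam was lost with the replicate block (adjusted p = 0.0564), and those of Cdh5 and Esam with limma-voom (adjusted p = 0.173 and 0.0775) and in several fits without 1 library. The fitted values of Emcn, Tek and Tie1 depend on the prior count, because WT epidermis held 0, 1 and 3 reads of them, and those of Cdh5 and Esam rest on 4 and 6 reads there. With so few reads in WT epidermis a fall there could hardly show, so the positive sign of the differences was largely set beforehand. Without Epidermis WT replicate 2 the Tek difference was 8.96 and that of Tie1 5.49, without Epidermis WT replicate 1 that of Flt1 was 4.35, and without Epidermis KO replicate 2 that of Emcn was 6.79. Of the 8 genes, Cdh5 and Esam overlapped between genotypes in the epidermis, so a rise there was not shown for them. Fibroblast, monocyte and neutrophil markers rose in KO epidermis, and the part of these cells in the differences was not tested.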

How the results depend on the processing

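In skin the calls and directions of all 10 genes were kept in 150 of 150 pairs of gene and setting (10 of them from the setting with 1 KO library), and in the epidermis those of the 4 tested genes in 52 of 52; this holds for Flt1 in skin with log2 fold changes between 1.63 and 1.97, and the replicate block changed no call of these genes (Flt1 1.78 in skin and 5.31 in the epidermis). The tissue comparison kept 127 of 130 in WT and 120 of 130 in KO libraries, where Vegfa ranged from -0.0954 to 0.304 over the libraries left out, below 0 without Skin KO replicate 1 or Epidermis KO replicate 3. For the difference between tissues 161 of 180 were kept; Esam was lost in the replicate block (2.60, adjusted p = 0.0564), Cdh5 and Esam with limma-voom (adjusted p = 0.173 and 0.0775) and in several fits without 1 library, with Esam down to 1.87 without Epidermis KO replicate 2. Kdr passed without Skin WT replicate 1 or Skin KO replicate 1 (adjusted p = 0.0425 and 0.0412), and Vegfa without Skin WT replicate 2 (adjusted p = 0.0469). In the epidermis 7 members were higher, not 4, with no filter and in 1 fit of 12 libraries.

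Without the KO skin libraries holding Y-linked reads, 1379 genes were higher and 1279 lower in skin, against 3310 and 3470; this leaves 1 KO library. KO epidermis against KO skin had 1246 genes higher with the replicate block, against 1989. Leaving out 1 library gave 1382 to 3388 genes higher in WT tissues, 977 to 1874 higher and 1351 to 1835 lower in KO tissues, and 904 to 2452 higher and 484 to 1488 lower for the difference between tissues. Epidermal ratios to Cdh5, whose groups overlapped, changed sign: Pecam1 to -0.56 and Vegfa to -0.26 with 7 genes as denominator, and over the libraries left out Kdr ranged from -2.19 to 0.37, Pecam1 from -0.0184 to 1.84 and Vegfa from -0.0964 to 1.89. Pecam1, itself 1 of those 7 genes, was left out of its own denominator. The cause of the sign changes was not tested. Depth limits Kdr, Cdh5, Esam, Emcn, Tek and Tie1 in the epidermis, at 0 to 14 reads in a library.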
